A study of Mus musculus with 250 samples.

Results

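The Wnt pathway is described here across single cells of the adult mouse brain that the titles name astrocytes. Its members are the 49 rows of the raw count table, of 24490 gene rows in all, whose names match the Wnt ligands, the Frizzled receptors, the Sfrp and Dkk inhibitors or the Tcf7 factors, or are Lrp5, Lrp6, Lef1, Axin2, Ctnnb1, Lgr4, Lgr6, Znrf3 or Rnf43. The rule used names and no measured value, though it was set with earlier results of these data known. By role they are 19 ligands, 10 Frizzled receptors, 2 co-receptors, 2 R-spondin receptors, 8 secreted inhibitors, 5 nuclear factors and 3 feedback inhibitors.

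All 250 cells form 1 group, from adult C57BL/6 mice of the genotype SM22-Cre;Rosa26-stop-tdTomato. In such mice the promoter of the smooth muscle gene Tagln drives Cre, which turns on a red reporter, and the labels give neither the gate of the sort nor the animal of any cell. Each cell was sorted into a well and its polyadenylated RNA was made into full-length cDNA by Smart-seq2, which has no molecular identifiers. The well names carry 2 prefixes, treated as plate 3 (88 cells) and plate 2 (162 cells). The cells are 1 sample without known replicates, so no test or p-value was made from them, and the plates serve as a check of whether a value repeats.

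Wnt ligands are secreted lipid-modified proteins that bind Frizzled receptors together with the co-receptors Lrp5 or Lrp6. The signal keeps beta-catenin, the product of Ctnnb1, from being destroyed, and beta-catenin then acts in the nucleus with factors of the TCF/LEF family. In the brain, Wnt7a and Wnt7b are known as signals to endothelial cells that build and keep up the blood-brain barrier.

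The depth of a cell was 282290 counted reads in the median, with 391072 on plate 3 and 256247 on plate 2, and ranged from 102161 to 564958. Levels are CPM, the reads of a gene per 1000000 reads of the cell, and a cell was counted as detecting a gene from 10 CPM upward, which is 2.82 reads at the median depth. The 12 astrocyte markers summed to between 16734 and 56865 CPM in every cell, and each cell detected at least 8 of them. Of these markers only Gfap, in 32 cells, was found in under 50% of cells. Tagln itself, the smooth muscle gene, was detected in 5 cells. In all, 15 cells detected 3 or more markers of 1 other cell type. The 8 endothelial markers were each detected in under 5% of cells, with a summed mean of 18.2 CPM on plate 3 and 8.25 CPM on plate 2, and Cdh5 was detected in 0 cells. Shares below carry exact (Clopper-Pearson) 95% intervals, which cover counting error only, since reads are copied by PCR and cells of 1 animal are not independent.

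Of the 49 members, 43 had at least 1 read (87.8%, beside 66.8% of all gene rows) and 41 were detected in at least 1 cell. The 4 detected in at least 50% of cells were the transcription factor gene Tcf7l2, the secreted inhibitor gene Sfrp5, the receptor-removing ligase gene Znrf3 and the ligand gene Wnt7b. These are 9.30% of the members with reads, beside 5.92% of all 16367 genes with reads. Tcf7l2, Sfrp5 and Znrf3 passed 50% on both plates, which 5.29% of genes did. At least 20% of cells detected 12 members, or 27.9%, beside 25.8% of genes, and at least 5% detected 23 members, or 53.5%, beside 58.1% of genes. The median member with reads was detected in 6.0% of cells and the median gene in 8.0%, so the members were detected about as widely as genes in general. Together the members held 0.215% of all reads and summed to 2126 ± 1033 CPM per cell (SD, n = 250). A cell detected a median of 6 members, with a range of 1 to 13. This number followed the number of genes detected in the cell, with a rank correlation over cells of 0.459 on plate 3 and 0.349 on plate 2, and the total reads less (plate 3 0.112, plate 2 0.0498).

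**Figure D1:**
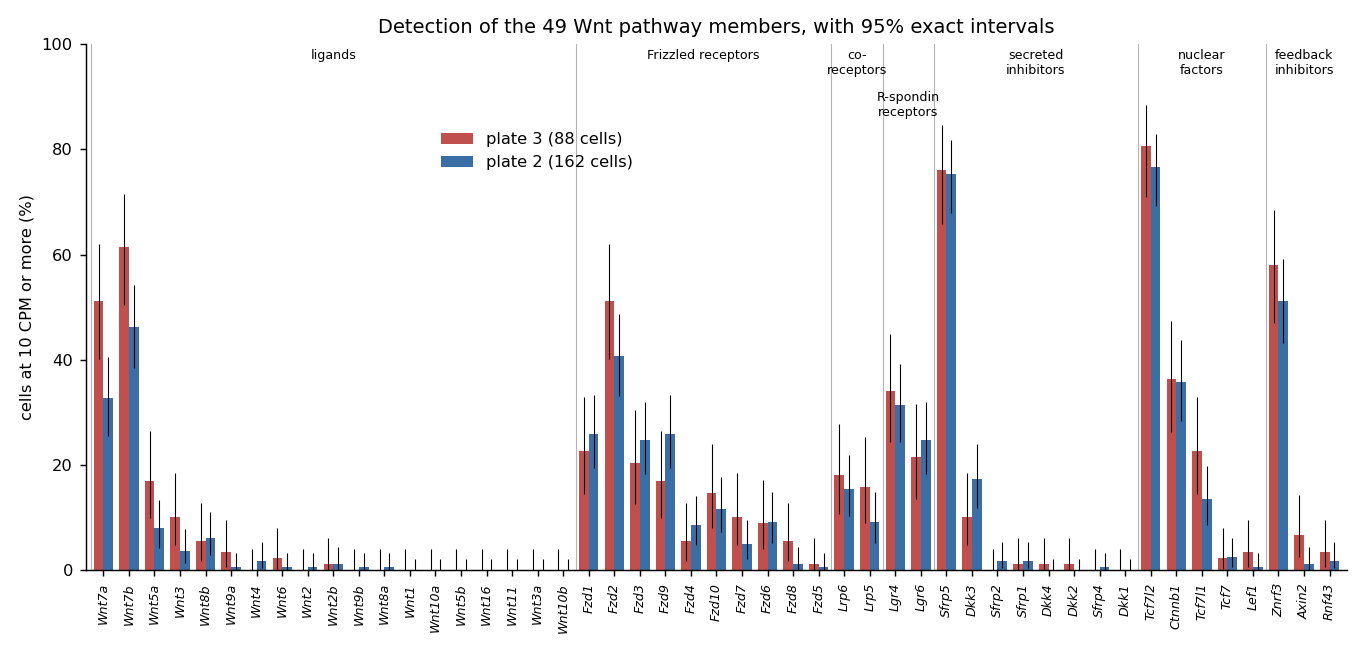
Share of cells at 10 CPM or more for each of the 49 members, grouped by role, with plate 3 (88 cells) left of plate 2 (162 cells) and lines for 95% exact binomial intervals. Sfrp5 and Tcf7l2 exceeded 75% on both plates, while 8 members were at 0% on both.

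To show the start regions of the widest detected ligand, inhibitor and nuclear factor genes for which a sequence was at hand, the 250 bases before the transcription start are given 5' to 3' on the gene's strand, from RefSeq on GRCm38.p6. Words with the core that TCF/LEF factors bind were searched on both strands, namely CTTTGAA, its variant CTTTGAT, the form CTTTGTA and lastly CTTTGTT, and a match is in capitals. The Sfrp5 region is chr19:42202253-42202502, the Wnt7a region chr6:91411354-91411603, both on the minus strand, and Tcf7l2 has an upstream start with chr19:55741560-55741809 and an internal start with chr19:55895071-55895320, both on the plus strand. Wnt7b and Znrf3 are named only.
Sfrp5: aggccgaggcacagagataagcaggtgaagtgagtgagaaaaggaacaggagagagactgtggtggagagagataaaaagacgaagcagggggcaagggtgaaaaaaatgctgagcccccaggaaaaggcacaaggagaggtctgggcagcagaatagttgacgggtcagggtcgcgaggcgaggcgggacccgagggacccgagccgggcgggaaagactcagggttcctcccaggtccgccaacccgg
Wnt7a: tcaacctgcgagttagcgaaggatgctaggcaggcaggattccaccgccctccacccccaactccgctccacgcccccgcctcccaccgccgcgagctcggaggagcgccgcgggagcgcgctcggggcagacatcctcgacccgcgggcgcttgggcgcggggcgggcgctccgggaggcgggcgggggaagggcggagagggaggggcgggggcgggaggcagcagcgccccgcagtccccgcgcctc
Tcf7l2 upstream start: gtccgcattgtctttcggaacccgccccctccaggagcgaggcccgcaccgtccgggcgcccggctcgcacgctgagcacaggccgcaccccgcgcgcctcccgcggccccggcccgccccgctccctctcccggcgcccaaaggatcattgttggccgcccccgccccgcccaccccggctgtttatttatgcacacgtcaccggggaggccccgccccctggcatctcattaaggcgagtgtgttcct
Tcf7l2 internal start: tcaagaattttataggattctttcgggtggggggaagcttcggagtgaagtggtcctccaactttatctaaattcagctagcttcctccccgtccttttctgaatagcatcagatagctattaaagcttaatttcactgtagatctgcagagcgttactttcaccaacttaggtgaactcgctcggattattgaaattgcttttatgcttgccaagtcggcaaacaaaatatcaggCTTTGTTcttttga
The regions of Sfrp5, Wnt7a and the upstream Tcf7l2 start hold 0 matches and are rich in G and C, at 59.6%, 77.6% and 72.8%. The internal Tcf7l2 start, at 40.8%, holds 1 match. A stretch just after this start was found in no Tcf7l2 transcript of GENCODE M21, unlike for the Sfrp5, Wnt7a and upstream Tcf7l2 starts. A match was found in 6 of 44 such regions of 34 members with an entry (13.6%), beside 14.8% of all 32851 regions. The table does not say which start was used in these cells.

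Among the ligands, which start the signal, Wnt7a and Wnt7b stood far above the rest and held 87.4% of the summed ligand CPM. Wnt7b was detected in 129 cells (51.6%, 45.2 to 57.9%) and averaged 193 ± 282 CPM over cells (SD, n = 250). Wnt7a was detected in 98 cells (39.2%, 33.1 to 45.6%) with 205 ± 383 CPM. Per kilobase of exon, the scale on which genes of unequal length can be set side by side, Wnt7a had a mean of 64.6 CPM and Wnt7b 39.5 CPM, and the next ligands on this scale were Wnt3 with 4.63 CPM and Wnt5a with 3.16 CPM. The median over the cells that detected the gene, in CPM without regard to length, was 415 for Wnt7a and 317 for Wnt7b.

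On plate 3, Wnt7a ranged from 0 CPM to 2801 CPM with a median of 29.4 CPM, and on plate 2 from 0 CPM to 2314 CPM with a median of 0 CPM. Wnt7b ranged from 0 CPM to 1588 CPM with a median of 119 CPM on plate 3, and from 0 CPM to 1182.5 CPM with a median of 0 CPM on plate 2. Cells at 0 and cells in the top of the range were thus present on both plates, and the plates overlapped over nearly the whole range. The share of cells with Wnt7a was 51.1% on plate 3 (40.2 to 61.9%) and 32.7% on plate 2 (25.6 to 40.5%). For Wnt7b it was 61.4% (50.4 to 71.6%) on plate 3 and 46.3% (38.4 to 54.3%) on plate 2. Within detecting cells the means were close, at 496 CPM on plate 3 and 545 CPM on plate 2 for Wnt7a and at 372 CPM (plate 3) and 375 CPM (plate 2) for Wnt7b. The plates differ in depth, the labels do not say whether they differ in animals, and the part of either in these shares was not tested. With every cell thinned to 100000 reads, 4 members were still detected in at least 50% of all cells. The shares of each plate after thinning were not computed.

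Wnt7a and Wnt7b were spread over cells nearly as if each were drawn apart from the other. Both were detected in 55 cells (22.0%, 17.0 to 27.7%), where independence within plates gives 52.2. Wnt7a alone was detected in 43 cells, Wnt7b alone in 74 and neither in 78 (31.2%, 25.5 to 37.3%). Their rank correlation over cells was 0.0722 on plate 3 and 0.0620 on plate 2. Some exon bases of Wnt7b, 324 of 4898, also belong to AU022754 on the other strand, and without a stated strand setting reads there cannot be told apart.

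**Figure D2:**
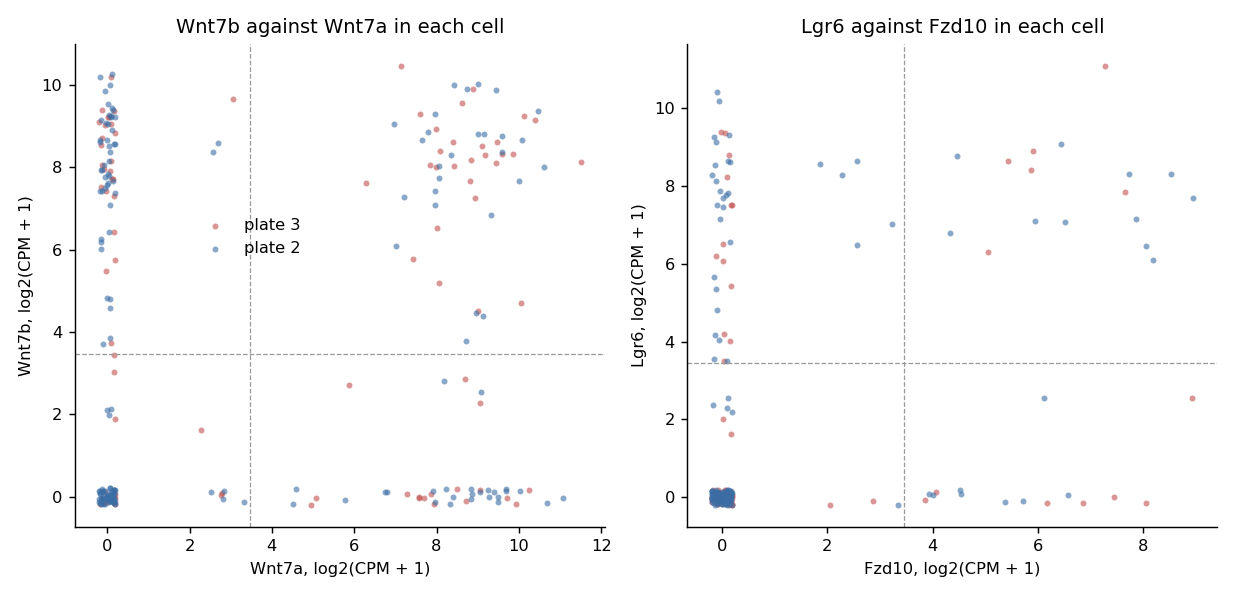
Level of Wnt7b against Wnt7a (left) and of Lgr6 against Fzd10 (right) in each of 250 cells, on log2(CPM + 1) axes with a small random shift of points, plate 3 in red and plate 2 in blue, dashed lines at 10 CPM. The Wnt7 genes were both detected in 55 cells, 17 cells detected both Fzd10 and Lgr6, and points along each axis are cells with 1 gene of the pair.

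Other ligands were detected in 64 cells in all, 13 of which had neither Wnt7 gene. Wnt5a, which in mammals signals mostly without beta-catenin, was detected in 28 cells (11.2%, 7.57 to 15.8%) with a mean of 24.7 CPM and a highest cell of 536 CPM. On plate 3, 17.0% of cells detected it, and on plate 2, 8.02%. Wnt3, a ligand of the beta-catenin branch, averaged 32.4 CPM on plate 3 with 9 detecting cells, and 4.37 CPM on plate 2 with 6. Without its highest plate 2 cell, at 415 CPM, that plate averaged 1.82 CPM. Wnt8b was detected in 15 cells with 9.64 ± 46.9 CPM, where plate 3 gave 9.30 CPM, or 6.05 CPM without its highest cell, and plate 2 gave 9.83 CPM. Wnt9a, Wnt4, Wnt6, Wnt2, Wnt2b, Wnt9b and Wnt8a were detected in 1 to 4 cells each, and in each of them a single cell held over 50% of the summed CPM. Wnt1 had 3 reads and Wnt10a 1 read. Wnt5b, Wnt16, Wnt11, Wnt3a and Wnt10b had 0 reads, for which the exact interval of the share of cells with a read reaches 1.46%. In all, 185 cells (74.0%) detected a ligand, 81.8% on plate 3 and 69.8% on plate 2, and 5 cells detected 4.

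The Frizzled receptors, which bind the ligands at the cell surface, were spread over many genes with none detected in 50% of cells. Fzd2 was the widest, in 111 cells (44.4%, 38.1 to 50.8%), and averaged 84.9 ± 153 CPM over cells (SD, n = 250). It ranged from 0 CPM to 696 CPM with a median of 14.6 CPM on plate 3, and from 0 CPM to 773 CPM with a median of 0 CPM on plate 2. Fzd1 was detected in 62 cells with 87.8 ± 206 CPM, and its plate means were nearly equal, at 87.1 CPM for plate 3 and 88.2 CPM for plate 2. Fzd3, a receptor of the planar cell polarity branch, was detected in 58 cells with 77.5 ± 183 CPM, 65.2 CPM for plate 3 and 84.2 CPM for plate 2. Fzd9 was detected in 57 cells with 53.4 ± 126 CPM, 34.1 CPM for plate 3 and 63.9 CPM for plate 2. On the per-kilobase scale the mean levels of Fzd9 (23.3 CPM), Fzd2 (23.2 CPM) and Fzd1 (20.9 CPM) were close, while that of the long gene Fzd3 was 6.05 CPM. Fzd2 thus reached the same mean level as Fzd1 from 111 cells, against 62.

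A second tier of Frizzled genes was detected in 17 to 32 cells each. Fzd10 was detected in 32 cells (12.8%) with 16.6 ± 63.1 CPM, 14.8% of cells on plate 3 and 11.7% on plate 2. Fzd6 was detected in 23 cells with 14.9 ± 66.8 CPM, 9.09% on plate 3 and 9.26% on plate 2. Fzd7 was detected in 17 cells with 16.3 ± 73.2 CPM, 10.2% on plate 3 and 4.94% on plate 2. Fzd4, which besides Wnts binds the ligand Norrin, was detected in 19 cells with 17.3 ± 78.3 CPM, and averaged 7.34 CPM over plate 3 and 22.7 CPM over plate 2. A single plate 3 cell at 499.6 CPM carried most of the plate 3 mean, which was 1.68 CPM without it. Without the 15 cells with markers of another type Fzd4 averaged 14.0 CPM and Fzd6 14.4 CPM. Both genes are also known in brain endothelial cells, whose 8 markers summed to a mean of 11.8 CPM, and the part of such RNA was not tested. Fzd8 was detected in 7 cells and Fzd5 in 2. A Frizzled was detected in 210 cells (84.0%, 78.9 to 88.3%), with 84.1% on plate 3 and 84.0% on plate 2. Of these cells 121 had 2 or more, and 157 of all cells detected both a ligand and a Frizzled.

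The 2 co-receptors of the beta-catenin branch were each detected in under 20% of cells, though in more than the 8.0% of the median gene with reads. Lrp6 was detected in 41 cells (16.4%, 12.0 to 21.6%) with 40.3 ± 129 CPM, 40.0 CPM for plate 3 and 40.5 CPM for plate 2. Lrp5 was detected in 29 cells with 6.17 ± 32.5 CPM, 5.41 CPM for plate 3 and 6.58 CPM for plate 2. A single plate 2 cell at 461 CPM held 29.9% of the summed Lrp5 CPM, and without it plate 2 averaged 3.75 CPM. Both genes are long, and their per-kilobase means were 2.95 CPM for Lrp6 and 0.633 CPM for Lrp5. At least 1 of these 2 genes was detected in 62 cells (24.8%) and at least 1 of the 10 Frizzled genes in 210, and the lists differ in length.

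Lgr4 and Lgr6 code for receptors of R-spondins, secreted proteins that strengthen Wnt signals by withdrawing Znrf3 and Rnf43 from the membrane. Lgr4 was detected in 81 cells (32.4%, 26.6 to 38.6%) with 94.8 ± 201 CPM, with plate means of 87.6 CPM (plate 3) and 98.7 CPM (plate 2). Lgr6 was detected in 59 cells (23.6%, 18.5 to 29.4%) with 72.3 ± 218 CPM, 75.5 CPM for plate 3 and 70.6 CPM for plate 2. Its highest cell reached 2275 CPM and held 12.6% of its summed CPM, and without that cell plate 3 averaged 50.2 CPM. At least 1 of them was in 122 cells and both in 18. Of the R-spondin genes themselves, Rspo3 was detected in 3 cells and Rspo2 in 1, and Rspo1 and Rspo4 had 0 reads.

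Among the secreted inhibitors, Sfrp5 had the highest level of all 49 members per kilobase of exon, with a mean of 202 CPM, followed by Wnt7a with 64.6 CPM. Its product holds a domain like that of the Frizzled receptors and can bind Wnts outside the cell. It was detected in 189 cells (75.6%, 69.8 to 80.8%) with a mean of 383 ± 416 CPM. On plate 3 it ranged from 0 CPM to 1221 CPM with a median of 267 CPM, and on plate 2 from 0 CPM to 2036 CPM with a median of 276 CPM. The shares were alike, at 76.1% on plate 3 and 75.3% on plate 2, and the plates overlapped except for the highest cells, which were on plate 2.

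The other inhibitors were found in far fewer cells. Dkk3, a divergent member of the Dickkopf family that is not counted among the Lrp6 blockers as Dkk1 is, was detected in 37 cells (14.8%, 10.6 to 19.8%) with 73.9 ± 226 CPM. These cells had a median of 423 CPM. On plate 3 it averaged 35.7 CPM with 9 detecting cells, and on plate 2 94.7 CPM with 28. Sfrp1 was detected in 4 cells, Sfrp2 in 3, and Dkk2, Dkk4 and Sfrp4 in 1 each. Dkk1 had 0 reads. Sfrp5 held 82.3% of the summed CPM of the 8 inhibitors, and 53 cells detected none of them.

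Of the nuclear factors, Tcf7l2 was detected in more cells than any other member at 10 CPM, while at 50 CPM it was in 60.8% of cells and Sfrp5 in 71.6%. The Tcf7l2 product, a TCF factor that beta-catenin binds, is also known in thalamic and midbrain neurons and in maturing oligodendrocytes. At 10 CPM Tcf7l2 was detected in 195 cells (78.0%, 72.3 to 83.0%) with 208 ± 247 CPM. On plate 3 it ranged from 0 CPM to 890.2 CPM with a median of 83.6 CPM, and on plate 2 from 0 CPM to 1263 CPM with a median of 145 CPM. The share was 80.7% on plate 3 and 76.5% on plate 2, and the ranges overlapped. The oligodendrocyte list, 8 markers, summed to 0 to 2420 CPM per cell on plate 3 and 0 to 2784 CPM on plate 2, with means of 340 CPM (plate 3) and 506 CPM (plate 2). Of the 8 markers 1 was detected in at least 50% of cells, 2 in at least 20% and the other 6 in under 5% each. The part of such RNA in the Tcf7l2 level was not tested. Without the 15 cells that detected 3 or more markers of 1 other type, Tcf7l2 remained among 4 members at 50% of cells or more.

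Tcf7l2 held 87.9% of the summed CPM of the TCF/LEF genes, and per kilobase it averaged 23.7 CPM and Tcf7l1 5.34 CPM. Tcf7l1, a mostly repressing factor, was detected in 42 cells (16.8%) with 21.0 ± 67.3 CPM, 31.0 CPM for plate 3 and 15.5 CPM for plate 2. Tcf7 and Lef1, which are often targets of the pathway themselves, were detected in 6 and 4 cells. Lef1 also had reads below 10 CPM in 23 cells. Ctnnb1, the gene of beta-catenin, was detected in 90 cells (36.0%, 30.0 to 42.3%) with 169 ± 318 CPM, 173 CPM for plate 3 and 167 CPM for plate 2. A further 42 cells had Ctnnb1 reads below 10 CPM, the most of any member. Of its exon bases 782 of 5192 are shared with Ulk4 on the other strand or with Mir7090, and their part in those reads was not tested.

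The feedback inhibitors are genes that beta-catenin itself can switch on and that then weaken the signal. Znrf3 was detected in 134 cells (53.6%, 47.2 to 59.9%) with 204 ± 307 CPM. On plate 3 it ranged from 0 CPM to 1320.2 CPM with a median of 60.3 CPM, and on plate 2 from 0 CPM to 2309 CPM with a median of 13.4 CPM. Its close relative Rnf43 was detected in 6 cells with 2.30 CPM. Axin2, the scaffold gene used as a standard reporter of the beta-catenin branch, was detected in 8 cells (3.2%) with 2.74 CPM, 6 cells on plate 3 and 2 on plate 2. A single cell at 370.2 CPM held 54.1% of its summed CPM. Lef1, Tcf7, Axin2 or Rnf43 was detected in 23 cells, and Lef1 and Axin2 together in 1. At 10 CPM, Znrf3 was thus widely detected while the other feedback genes and Lef1 were not.

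**Figure D3:**
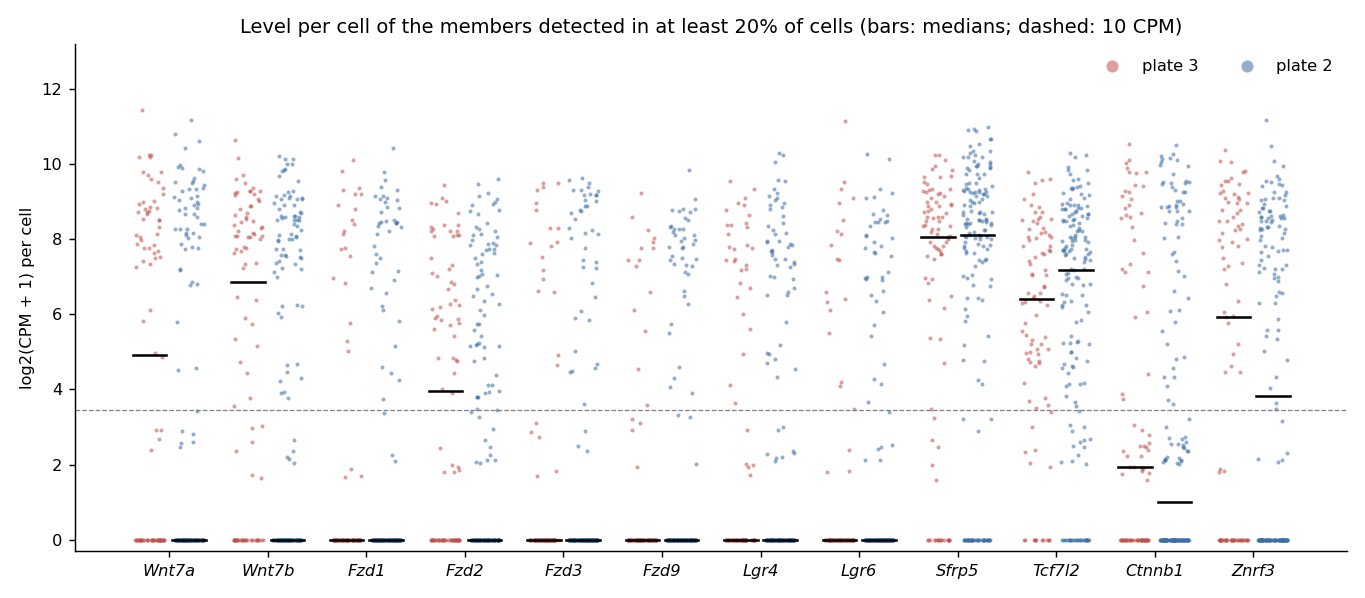
Level per cell, as log2(CPM + 1), of the 12 members detected in at least 20% of 250 cells, with plate 3 left of plate 2, 1 point a cell, black bars for medians and a dashed line at 10 CPM. For each member the cells at 0 and the cells at high levels were present on both plates, and only Sfrp5 and Tcf7l2 had medians above 10 CPM on both besides Znrf3.

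The means of most members of at least 10 CPM repeated between the plates. Among the 21 members with a mean of at least 10 CPM over all cells, the log2 ratio of plate 3 over plate 2 had a median of 0.05 and a median size of 0.40, which is also the median size over all 9181 genes at that level. Past a 2-fold difference were 3 of the 21 members (14.3%), beside 14.6% of those genes. Wnt3 was higher on plate 3, with a log2 ratio of 2.89, and Fzd4 and Dkk3 were lower, with -1.63 and -1.41. Of the genes, 5.62% were 2-fold higher on plate 3 and 8.96% were 2-fold lower. Without the minimum mean, 21 of the 43 members with reads were past 2-fold, and 8 of these had reads on 1 plate only. The members with the closest means were Lrp6, with -0.02, Fzd1, with -0.02, and Ctnnb1, with 0.05. On the log scale of single cells, a difference that takes cells at 0 into account more, Wnt7a and Wnt7b were instead the 2 members past 1, both higher on plate 3. The share of all genes past 1 on that scale was not computed.

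Cells differed in most members by more than their mean. The coefficient of variation (SD over mean, n = 250) was lowest for Sfrp5, at 1.08, and for Tcf7l2, at 1.19, and was 1.46 for Wnt7b, 1.87 for Wnt7a and 5.27 for Lrp5, which was 3.42 without its highest cell. Genes of low mean vary more in such data, so each was set against a trend of squared variation on mean level over 6381 genes with at least 20 CPM on both plates. Of the 15 members in that range, Wnt7a, Ctnnb1, Dkk3, Lgr6 and Fzd1 lay above the trend on both plates. This is 33.3% of them, beside 35.7% of the genes. The squared variation of Wnt7a was 1.54 times the trend on plate 3 and 1.62 times on plate 2, which ranked it 164 of the 6381 genes. Tcf7l2 lay at 0.542 times the trend on plate 3 and 0.656 times on plate 2, and Fzd2 at 0.578 times (plate 3) and 0.684 times (plate 2), so they were more even between cells than most genes of their level.

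The members showed little shared variation by rank correlation, and how sparse counts affect such values was not tested. Over the 153 pairs of the 18 members detected in at least 10% of cells, the mean rank correlation was 0.0161 on plate 3 and 0.0106 on plate 2. It was above 0.1 on both plates for 7 pairs and below -0.1 on both for 3. The same values for pairs of other genes were not computed. The pair with the highest value, by the lower of the plates, was Fzd10 and Lgr6, with 0.267 on plate 3 and 0.384 on plate 2. Both were detected in 17 cells, where independence within plates gives 7.50, and Lgr6 was detected in 53.1% of the cells with Fzd10 and in 19.3% of the others. The next pairs were Lrp6 and Dkk3 (plate 3 0.154, plate 2 0.188), and Fzd1 and Lgr6 (plate 3 0.169, plate 2 0.146). The lowest pairs, by the plate nearer 0, were Wnt7b and Tcf7l2 (plate 3 -0.137, plate 2 -0.146), Lgr6 and Sfrp5 (plate 3 -0.139, plate 2 -0.129), and Fzd10 and Lrp5 (plate 3 -0.127, plate 2 -0.105), which had no cell in common. These are the extremes of 153 pairs of sparse counts and carry no test.

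**Figure D4:**
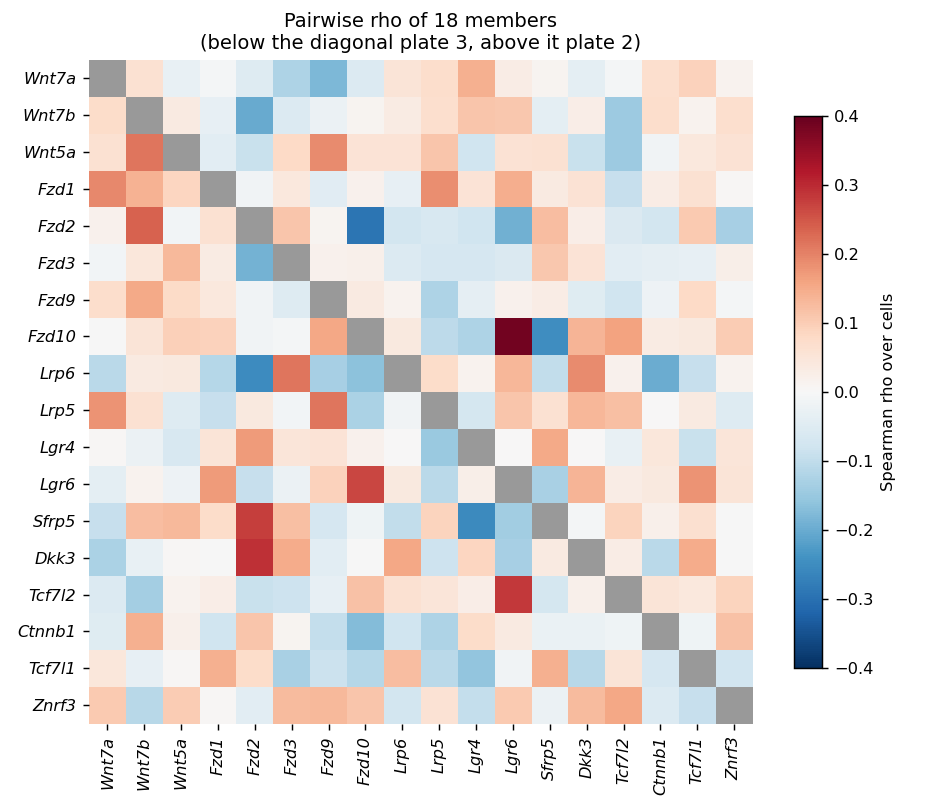
Spearman rank correlation over cells for each pair of the 18 members detected in at least 10% of cells, with plate 3 (88 cells) below the diagonal and plate 2 (162 cells) above it, red for positive and blue for negative. Most pairs lie near 0, and Fzd10 with Lgr6 is the pair with the highest value by the lower of the plates, at 0.267 (plate 3) and 0.384 (plate 2).

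For the 12 members detected in at least 20% of cells, the genes of most like pattern were sought among the 4104 genes with a mean of at least 20 CPM that at least 20% of cells detected, members aside, by the lower of the rank correlations on the plates. Lgr6 was most like Kcnj10, the potassium channel gene of astrocyte endfeet, with 0.337 on plate 3 and 0.303 on plate 2, and then Hddc2 and Sept4. Its most opposite genes were Cyp26b1, which breaks down retinoic acid (plate 3 -0.293, plate 2 -0.287), Mfge8, a secreted protein gene of telencephalic astrocytes (plate 3 -0.233, plate 2 -0.243), and Padi2. Sfrp5 was most like Nkain4 (plate 3 0.309, plate 2 0.246), Nnat and Aig1. Wnt7a was most like Spire1 (plate 3 0.263, plate 2 0.238), Matr3 and Gpr56, and Wnt7b was most like the GABA transporter gene Slc6a11 (plate 3 0.273, plate 2 0.196), and Ift172 was also among its likest. Fzd2 was most like Apoe, the main lipid carrier gene (plate 3 0.261, plate 2 0.240), Thap3 and Zfp318. Tcf7l2 was most like Crtc1, Atxn2 and Galnt1 and most opposite to Nfat5 (plate 3 -0.337, plate 2 -0.285).

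The likest genes of the remaining members reached 0.165 to 0.223 on the plate where they were lower. They were Fnbp1, Ythdf2 and 2210016L21Rik for Fzd1, Esd, Nnat and Sdc2 for Fzd3, and Atp5j2, Glrx and Atp5a1 for Fzd9. For Lgr4 they were Abi1, Sgta and Lias, for Ctnnb1 Kcnip3, Plce1 and Adam10, and for Znrf3 Hbegf, Arhgap21 and Akt2. Each is an extreme among 4104 genes over the same cells, which share their plate and differ in depth, and no shared function follows from it.

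The genes of the machinery around the members included several that most cells detected. Of 74 other genes in the pathway lists, 68 had reads and 11 of these (16.2%) were detected in at least 50% of cells, beside 5.92% of all genes and 9.30% of the members. The 11 include Id2 and Sox9 from the list of common target genes, and Tcf4, which is not a factor of this pathway. Wls, which carries Wnts to the cell surface, was detected in 152 cells with 432 ± 549 CPM, and Porcn, the enzyme that adds their lipid, in 75 cells with 90.8 CPM. Wls was detected in 62.8% of the 172 cells with Wnt7a or Wnt7b and in 56.4% of the others. Notum, which removes that lipid, was detected in 1 cell.

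Of the 12 genes of the destruction complex and its partners, which hold beta-catenin low, 4 were in at least 50% of cells. These were Apc with 482 CPM, the kinase genes Gsk3b with 225 CPM and Csnk1a1 with 174 CPM, and Apc2 with 184 CPM. The scaffold gene Axin1 was detected in 15 cells. None of the 8 genes of the Dishevelled list reached 50%, with Dvl1 highest at 62.4 CPM in 68 cells, followed by Cxxc4 and Dvl3. Of 15 nuclear partners 2 did, the repressor gene Tle2 with 165 CPM and Tcf4 with 253 CPM, and Hbp1 had 179.8 CPM in 105 cells. Tcf4 and Tcf3 of that list are genes of E proteins, whose symbols were once used for Tcf7l2 and Tcf7l1, and they are not factors of this pathway, although Tcf4 is 1 of the 11.

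Of 9 planar cell polarity genes, Daam2 with 510.0 CPM in 191 cells and Celsr2 with 123 CPM in 126 cells passed, and Daam1 had 107 CPM. Of 11 other receptors and partners none did, and the highest were Tnfrsf19 with 155 CPM, Lrp4 with 103 CPM and Tspan12 with 97.7 CPM. Reck and Gpr124, which endothelial cells use to receive Wnt7 ligands, were detected in 29 and 8 cells. Of 10 other secreted modulators the leading gene was Ndp, which codes for the Fzd4 ligand Norrin, with 113 ± 247 CPM in 58 cells, then Apcdd1 with 12.6 CPM and Rspo3 with 1.72 CPM. Of 10 common target genes, Id2 with 614 CPM and Sox9 with 302 CPM passed 50% of cells, and Tnfrsf19 came next. Id2 and Sox9 have many other regulators, and Sox9 is also on the astrocyte marker list. Of the 10 target genes, 3 were in at least 20% of cells and 4 in at least 5%. Among the others on the list, Nkd1 was detected in 2 cells, Notum in 1, Apcdd1 in 15 and Sp5 in 0 at 10 CPM.

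**Figure D5:**
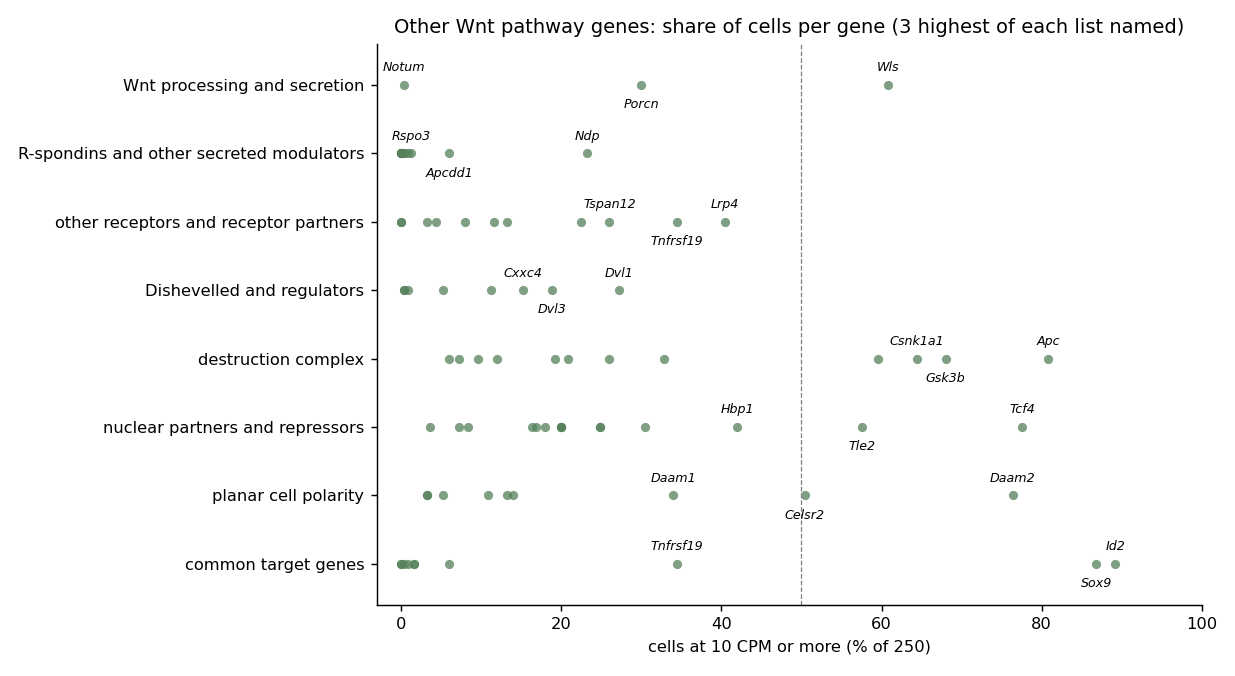
Share of the 250 cells at 10 CPM or more for each gene of the 8 lists of other pathway genes, 1 point a gene, with the 3 widest of each list named and a dashed line at 50%. The destruction complex has 4 genes right of the line, while the Dishevelled, receptor and secreted modulator lists have 0.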

How the data were processed

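Single-cell RNA-seq of 250 sorted mouse brain cells was analysed. The deposited raw table holds whole-number read counts per gene and cell, which the authors did not normalize, by the file's own values. The submitters' processing notes name STAR 2.4.2a and the build mm10. Counting tool, strand setting, annotation and cell filter were not given in the sources used here. A second, normalized table of the authors was not used here. All 250 columns were matched to samples by name, 0 value columns were left unmatched and no cell was removed.

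From the counts, CPM, detection at 10 CPM, log2(CPM + 1) and within-plate Spearman correlations were computed (Python 3.11.15, numpy 2.4.6, scipy 1.17.1, pandas 2.3.3, statsmodels 0.14.6). Thinning drew 100000 reads per cell. The variation trend was a lowess fit with a span of 0.1 on each plate. Exon lengths are the union of exons per gene in GENCODE M21 (GRCm38), matched by symbol for all 49 members, and may differ from the authors' annotation. How the correlation step behaves on sparse counts was not tested. The text names every member, those in at least 5% of cells with levels, the 3 highest and 3 lowest pairs, the 3 likest genes of members in at least 20% of cells, and the 3 highest genes of each pathway list, and others were chosen after their values were seen. Some genes these rules name are not reported here. Members and lists were chosen with earlier results of these data known.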

Additional observations from a re-analysis of the deposited data

How the results depend on the processing

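The count of members detected in at least 50% of cells was 4, and 2 when detection required 50 CPM. It was 6 at 1 read (with Fzd2 and Ctnnb1), 6 on plate 3 alone (with Wnt7a and Fzd2), 3 on plate 2 alone (without Wnt7b) and 4 under thinning, another total and without the 15 cells with markers of another type. The number with a read was 43 with and without thinning. The members past a 2-fold plate difference were 3, and 21 of 43 without a minimum mean, where the share of all genes was not computed. These 21 include the 8 members with reads on 1 plate only. The other settings gave 2 to 4, with Tcf7l1 or Fzd9 as the added member, and with mean log2(CPM + 1) those 2 were Wnt7a and Wnt7b. The mean pairwise correlation was 0.0133, 0.0197 by Pearson and 0.00654 given total reads and genes detected. The members above the variation trend were 5, and 5 or 6 at spans of 0.05 and 0.3, which were chosen after the data were seen. The summed level stayed between 1939 and 2233 CPM. Of the values for single members and named pairs, 17 shares left their interval and 8 plate ratios crossed the 2-fold line under the alternatives run. Of the correlations, 5 moved by more than both the spread between plates and 0.05. The settings of 1 plate alone could not move a correlation past that spread. No value that was called changed sign. The values for named pairs were chosen after the data were seen. No paired analysis was possible because the cells form 1 group without labelled animals. The threshold of 10 CPM is 1.02 reads in the shallowest cell, and thinning kept all 23 shares of members detected in at least 5% of cells within their intervals. The values without the highest cell of a member were added after the data were seen.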

Other observations

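The 18 members detected in at least 1 but under 5% of cells were scattered, with 1 or 2 of them in 53 cells and 2 in 6 of these. Of the 15 cells with 3 or more markers of another cell type, 3 detected such a member.

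Fzd10 was also looked at beside the Bergmann glia genes, a choice made after its values were seen. Of 32 cells with Fzd10 and 34 with A2m, a Bergmann glia marker, 11 detected both, where independence within plates gives 4.32. The rank correlation of Fzd10 and A2m was 0.161 on plate 3 and 0.329 on plate 2, and that of Fzd10 and Gdf10, another such marker, was 0.0496 (plate 3) and 0.253 (plate 2). The cells with Fzd10, Lgr6 and A2m together were 7.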
